A study of Drosophila melanogaster with 24 samples.

Results

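CLK and CYC are the paired bHLH-PAS transcription factors that drive the circadian clock of the fly. In the textbook account they bind DNA together, as a heterodimer at E-box elements, and switch on the genes of the clock's own repressors as well as many output genes. Fly bodies hold clocks in tissues such as the fat body, the gut and the Malpighian tubules, and heads hold the clock neurons, the photoreceptors and the head fat body. The sites described here are those where body chromatin gave a reproducible peak for one of the pair and none for the other. There were 238 such regions among the 21784 regions made by joining the peaks of 8 lists, and they fell into 176 with CYC but no CLK and 62 with CLK but no CYC.

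The lists come from ChIP-seq, in which chromatin is pulled down with an antibody and the recovered DNA is sequenced. Per the labels, an antibody against the V5 tag was used on heads or bodies of Drosophila melanogaster strain Clk, strain cyc or strain w-, the last of which is the wild type without a V5 tag and serves as a mock pull-down. All flies were 5 to 10 days old, were kept at 25 °C in 12 h of light and 12 h of darkness, and were collected at ZT13, 1 h after lights-off. Each of the 6 groups has 2 pull-downs, which the study's design text calls biological replicates, and each of the 12 pull-downs has a peak list. The sources used here do not say how the tag was introduced or which promoter drives it, and whole heads and bodies mix many cell types, so fewer bound cells and less binding per cell cannot be told apart.

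Peaks that shared 1 bp or more were joined into a region. A region was kept when it had a peak in both body lists of one factor and in neither body list of the other, so the members were selected on body peak calls, and their body values are given as a description, without a test. Body CYC replicates 1 and 2 held 3967 and 1276 peaks, and body CLK replicates 1 and 2 held 2433 and 1153. Tagged head lists held 4609 to 13729 peaks, head mock lists 12082 and 1726, and body mock lists 73 and 175. The depth of the libraries is unknown, so the lack of a peak means that none was called there and not that the factor was absent.

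Most body sites with reproducible binding of one factor had at least one called peak of the partner. Of the 712 regions in both body CYC lists, 305 (42.8%, 95% Clopper-Pearson interval 39.2 to 46.6) were in both body CLK lists, 231 (32.4%) were in 1 of them and 176 (24.7%, 21.6 to 28.1) were in none. Of the 576 regions in both body CLK lists, the same 305 (53.0%, 48.8 to 57.1) were in both body CYC lists, 209 (36.3%) were in 1 and 62 (10.8%, 8.35 to 13.6) were in none. Both groups are small against the 5382 regions with a peak in any body list, of which they made up 3.27% and 1.15%. These intervals, like all others here, cover counting error only.

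The number of CYC regions without CLK fell when the body lists had equal length, whereas that of CLK regions without CYC stayed close. Both numbers moved with the choice of lists that decided membership. CYC regions without CLK outnumbered CLK regions without CYC 2.84-fold in the whole lists. With all 4 body lists shortened to their 1153 best peaks by the first deposited score, the groups held 103 and 76 regions, a ratio of 1.36. With the lists shortened by the second score they held 70 and 69. From the replicate 2 body lists alone, which are close in length, the counts were 864 and 739, and from the replicate 1 lists alone 2344 and 928. The order of the groups turned when 1 CLK list was left out, so that a single CLK peak sufficed for the CLK group, with 369 and 420 regions without body CLK replicate 1 and 216 and 849 without replicate 2. Without body CYC replicate 1 they held 614 and 252 regions, and without replicate 2 they held 2168 and 83. The lists that decided absence also differed in length. Of the 231 regions in both CYC lists and 1 CLK list, 192 had their CLK peak in the longer CLK replicate 1 list, and of the 209 in both CLK lists and 1 CYC list, 188 had it in the longer CYC replicate 1 list.

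**Figure D1:**
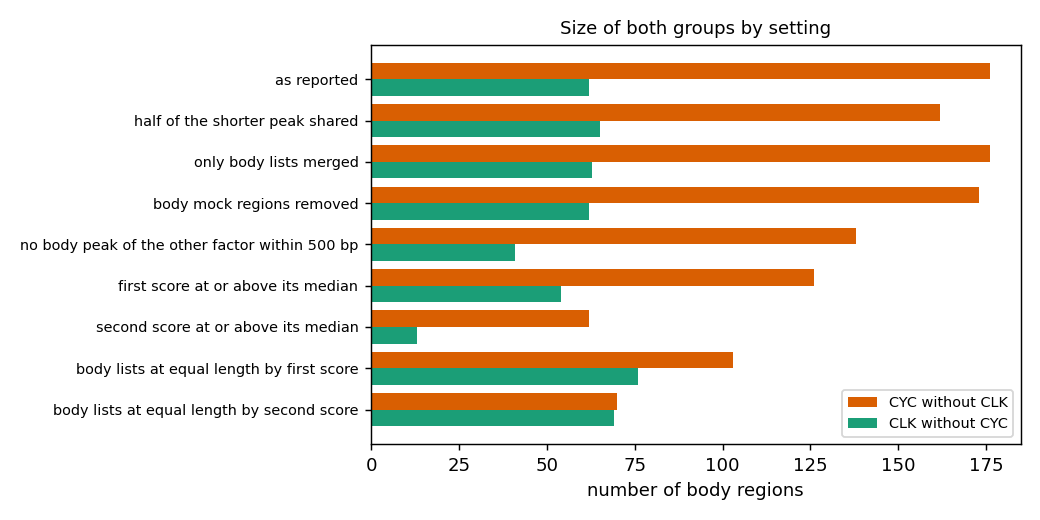
Number of body regions (horizontal axis) with CYC and no CLK, and with CLK and no CYC, for each setting on the vertical axis; bars start at 0. The bars stand at 176 and 62 as reported and come level, at 70 and 69, when the 4 body lists have the same length by the second score.

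By the first score, one-partner sites were ordinary peaks of their own lists. Each peak carries 2 scores from the authors' lists, both at 2 or more and without a stated scale, and peaks were ranked within a list by the first. In body CYC replicate 1 the CYC regions without CLK had first scores from 2.16 to 42.5 with a median of 7.57, against a median of 6.60 for that whole list. In body CYC replicate 2 they ran from 2.02 to 26.1 with a median of 5.53, against 5.81 for the list. The median thus lay close to that of an ordinary peak in both replicates.

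CLK regions without CYC had first scores from 2.24 to 25.1 in body CLK replicate 1, with a median of 8.15, which is also the median of that list. In body CLK replicate 2 they ran from 2.12 to 17.0 with a median of 5.70, against 6.15 for the list. The 305 regions in all 4 body lists stood higher, with medians of 22.4 and 12.7 in the CYC lists and 21.7 and 12.1 in the CLK lists. By the first score no CLK region without CYC was among the 100 best peaks of either body CLK list. Of the CYC regions without CLK, 2 were among the 100 best of body CYC replicate 1 and 1 among those of replicate 2, whereas the regions in all 4 lists filled 80 to 87 of those places in each body list.

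The second score placed the members somewhat differently. The CLK regions without CYC had second-score medians of 4.84 and 3.15 in the body CLK lists, above the 4.41 and 2.91 of the whole lists, and their best ranks were 19 and 56. Among the 100 best peaks by that score they numbered 2 and 4 of the 62. The CYC regions without CLK had medians of 3.71 and 2.95 in the body CYC lists, below the 4.00 and 3.10 of the lists. Their best ranks were 22 and 9, and 3 and 10 of the 176 were among the 100 best. Each of these counts is a smaller share of its group than 100 is of its list. The regions in all 4 body lists filled 42 and 60 of those places in the CLK lists and 54 and 58 in the CYC lists. Their second-score medians were 7.64 and 3.93 in the CLK lists and 10.4 and 4.68 in the CYC lists.

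**Figure D2:**
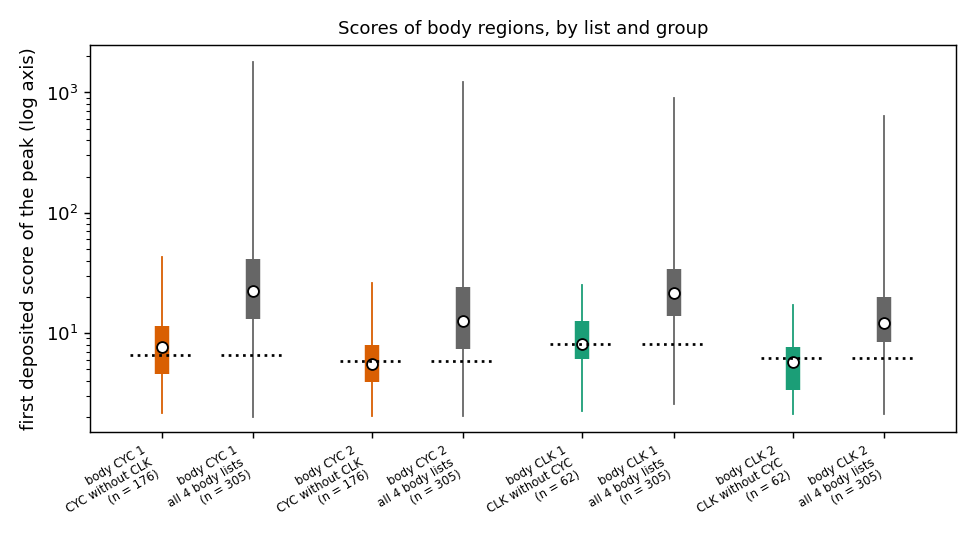
First deposited score (log axis, no stated unit) of body regions by list and group; thin lines span lowest to highest, thick bars the interquartile range, circles the median, and dotted lines the median of the whole list. One-partner groups sit at the dotted line, with medians of 5.53 to 8.15, and regions in all 4 lists sit above it, with medians of 12.1 to 22.4.

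The share of sites without a partner peak rose steadily down the ranks. When the 712 regions in both CYC lists were put in 4 equal bins by their mean rank, 6 of 178 in the best bin (3.37%) had no CLK peak. The next bins had 17.4% and 27.0%, and the last had 91 of 178 (51.1%). For the 576 regions in both CLK lists the shares without a CYC peak were 0 of 144, 6.25%, 10.4% and 26.4%. Ranked by the second score, the CYC shares ran from 11.2% to 47.8% in the same order. The CLK shares by that score were 6.94%, 9.03%, 14.6% and 12.5%, so there the last bin was not the highest.

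The positions of one-partner peaks varied between replicates by somewhat more than those of shared peaks, a difference that was not tested. The midpoints of the replicate peaks lay a median of 57.0 bp apart at the 176 CYC regions without CLK and 68.5 bp apart at the 62 CLK regions without CYC. At the regions in all 4 body lists these medians were 25.0 bp for CYC and 32.0 bp for CLK. Spearman's rho between the replicates' first scores, over regions of the same libraries, was 0.50 for CYC without CLK and 0.55 for CLK without CYC. It was 0.85 and 0.81 for CYC and CLK at the regions in all 4 lists, whose scores also span a wider range.

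The best-ranked CYC regions without CLK included sites that both factors occupied in heads. Coordinates are those of the lists, whose build is dm3 per the submitters' processing notes. The first was chr3R:17018866-17019173, with first scores of 42.5 and 26.1 in the body CYC lists, at ranks 81 and 79. It had a head peak in CLK replicate 1 alone, with a score of 4.57, and its nearest body CLK peak lay 4121 bp away.

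The second region, chr3R:5244937-5245265, had scores of 28.5 and 21.4 in the body CYC lists, at ranks 153 and 110. Its head CLK scores were 177.4 and 70.1, at ranks 55 and 61, and its head CYC scores were 40.2 and 18.2, at ranks 87 and 135. By the first score it was thus among the strong CLK peaks of heads in both replicates. Bodies gave no CLK peak there, and the nearest one lay 1624 bp away. Its second scores were 25.4 and 6.25 in head CLK, 7.39 and 2.07 in head CYC and 3.52 and 3.43 in body CYC. The head CLK values stood above the list medians of 5.71 and 3.55. That of head CYC replicate 2 lay near the lowest of its list, 2.01. Head mock replicate 1 also had a peak at this region. Its part in the head scores was not tested.

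The third, chr3L:2423577-2423899, had no peak in any mock list. Its first scores were 27.1 and 19.6 in the body CYC lists. In heads they were 61.2 and 29.5 for CLK and 12.5 and 8.89 for CYC. The 6th, chr3L:8000626-8000973, was likewise free of mock peaks, with 16.0 and 19.7 in the body CYC lists. Its head scores were 17.3 and 17.8 for CLK and 11.3 and 11.8 for CYC. At both regions every tagged library outside body CLK gave a peak.

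The other 6 of the 10 best were chr3R:7602915-7603265, chr3R:1519933-1520269, chr3L:8718399-8718693, chr3L:18092915-18093260, chr3R:20407665-20408003 and chr3R:4638459-4638754. Of these, chr3R:1519933-1520269 had second scores of 14.4 and 76.0 in body CYC. It had 76.4 and 60.3 in replicate 1 of head CLK and head CYC, so it stood high by both scores. Head mock replicate 1 also had a peak there, and at chr3R:7602915-7603265, chr3R:20407665-20408003 and chr3R:4638459-4638754. Body mock replicate 2 had a peak at chr3L:18092915-18093260. The region chr3L:8718399-8718693 had no head peak, with first scores of 25.4 and 12.1 in body CYC. In all, 8 of the 10 had a tagged head peak and 6 had a peak in all 4 tagged head lists. Over the 983 regions in both body lists of at least 1 factor these shares were 73.7% and 32.9%. In the best 2 of the 4 bins of body CYC rank, 92.9% and 92.5% of the regions in all 4 body lists had a tagged head peak.

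The best CLK regions without CYC ranked lower in their lists. The first was chr2L:1649787-1650119, with first scores of 18.4 and 17.0 in body CLK, at ranks 303 and 115. It had peaks in 3 head lists, with scores of 39.7 and 19.9 in head CLK and 9.95 in head CYC replicate 1, and a peak of head mock replicate 1. The second was chr2L:3628924-3629291, with 25.1 and 11.4 in the body CLK lists. In heads it scored 16.3 and 10.7 for CLK and 5.92 and 4.35 for CYC. Both head mock lists had a peak there as well.

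Among the next, chr3L:3765767-3766100 scored 18.1 and 12.9 in body CLK, 46.6 and 32.6 in head CLK and 18.9 in head CYC replicate 1. Head mock replicate 1 had a peak there too, and a body CYC peak lay 213 bp away. The region's second scores in body CLK were 2.5 and 2.07, in lists whose lowest is 2.01. The fourth, chr2L:12520982-12521311, followed one factor in both tissues, with 19.1 and 11.9 in body CLK, 31.0 and 16.5 in head CLK and no CYC peak in either tissue. A body CYC peak did lie 25 bp beyond its edge. The region's second scores in body CLK were 3.07 and 2.08, below the list medians of 4.41 and 2.91. In head CLK they were 6.48 and 3.1, against list medians of 5.71 and 3.55. The remaining 6 were chr3R:27572035-27572375, chr3L:20502732-20503069, chr2R:10153125-10153469, chr2L:6352055-6352373, chr3L:12830891-12831199 and chr2L:13841440-13841851. Of the 10, 7 had a tagged head peak and 3 had a peak in all 4 tagged head lists, against 73.7% and 32.9% of the 983 regions.

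The head lists took no part in the choice of members except to join neighbouring peaks. Of the 176 CYC regions without CLK in bodies, 104 (59.1%, 51.4 to 66.4) had a peak in at least 1 tagged head list. Of the 62 CLK regions without CYC, 33 (53.2%, 40.1 to 66.0) did. When 1 body CYC list sufficed, without replicate 2, the CYC share was 38.0%, and when 1 body CLK list sufficed, without replicate 2, the CLK share was 34.6%. The share was 73.7% over the 983 regions in both body lists of at least 1 factor and 88.5% (84.4 to 91.9) over the 305 regions in all 4 body lists. The shares of both one-partner groups lie below that of the regions in all 4 body lists, a difference not tested across libraries. The regions in all 4 lists also had higher first scores in bodies.

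A peak in all 4 tagged head lists was found at 27 CYC regions without CLK (15.3%, 10.4 to 21.5) and at 6 CLK regions without CYC (9.68%, 3.63 to 19.9). The same was found at 32.9% of the 983 regions and at 173 of the 305 regions in all 4 body lists (56.7%, 51.0 to 62.4). No head peak at all was found at 72 and 29 members. Of the 27 CYC regions in all 4 head lists, 19 were free of head mock peaks, which is 10.8% of the group against 18.0% of the 983. Of the 6 CLK regions, 3 were, chr2L:10851394-10851797, chr2R:10153125-10153469 and chr3L:20502732-20503069. The first of these 3 falls outside the rule for named regions and was picked after its values were seen, with first scores of 10.6 and 7.99 in the body CLK lists. In heads it scored 38.5 and 29.7 for CLK and 11.7 and 9.65 for CYC.

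**Figure D3:**
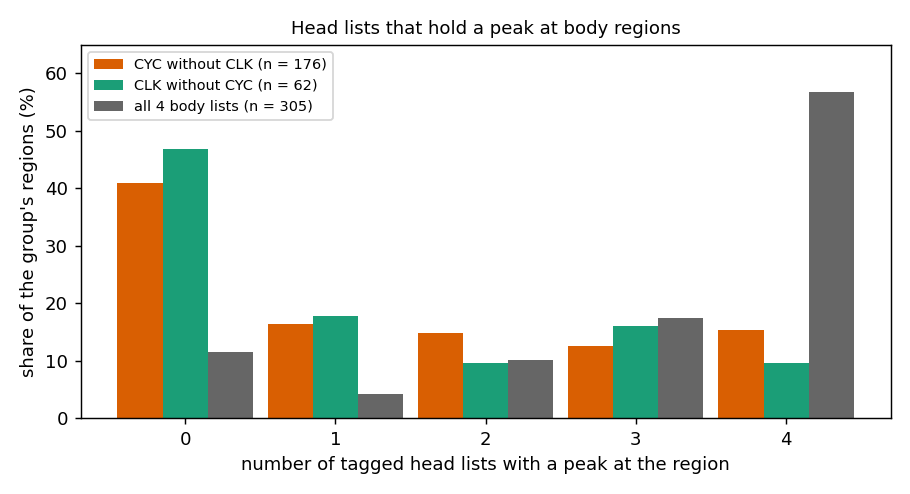
Share of each group's regions (vertical axis, %) by the number of the 4 tagged head lists that hold a peak there; bars start at 0. The tallest single bar of the one-partner groups is at 0 lists (40.9% and 46.8%), and that of regions in all 4 body lists is at 4 lists (56.7%). At least 1 tagged head list holds a peak at 59.1% and 53.2% of the one-partner groups.

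In heads, the sites where bodies showed CYC alone had CLK peaks at least as often as CYC peaks, as did reproducible body sites in general. Head CLK replicates 1 and 2 had a peak at 45.5% and 34.7% of the CYC regions without CLK, and head CYC replicates 1 and 2 at 35.2% and 29.5%. The head CLK list was the longer of the 2 in replicate 1, with 13729 peaks against 12086, and the shorter in replicate 2, with 4609 against 4848. Over the 983 regions the same lists had peaks at 62.8%, 58.2%, 48.5% and 47.3%, so the higher CLK shares were not particular to this group. At least 1 head CLK list had a peak at 87 of the 176 (49.4%, against 68.2% of the 983). At least 1 head CYC list had one at 83 (47.2%, against 60.9% of the 983). Both head CLK lists had a peak at 54 of the 176 (30.7%, 24.0 to 38.1; 52.8% of the 983) and both head CYC lists at 31 (17.6%, 12.3 to 24.1; 34.9% of the 983).

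At the CLK regions without CYC, head CLK replicates 1 and 2 had a peak at 37.1% and 41.9%, and head CYC replicates 1 and 2 at 25.8% and 19.4%. Both head CLK lists had a peak at 20 of the 62 (32.3%, 20.9 to 45.3) and both head CYC lists at 6 (9.68%). Head CLK lists thus held more of these regions than the head CYC list of the same number, as they did at the regions in all 4 body lists, with 82.6% and 80.7% against 70.5% and 69.8%.

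To ask whether the head lists kept the body preference, the share at CYC regions minus the share at CLK regions was taken within each head library. This difference was 9.42 and 10.2 percentage points in head CYC replicates 1 and 2. It was 8.36 and -7.28 points in head CLK replicates 1 and 2. The CYC libraries exceeded the CLK libraries by a mean of 9.27 points (exact two-sided permutation test over libraries, p = 0.333, n = 2 and 2), and 0.333 is the smallest p that 6 arrangements allow. The difference was 17.1 points without head CLK replicate 1 and 15.0 without body CYC replicate 1. It came down to 1.45 points without head CLK replicate 2 and had the opposite sign, at -7.44, among peaks at or above the median second score. It was also negative without either body CLK replicate, at -1.31 and -1.09.

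**Figure D4:**
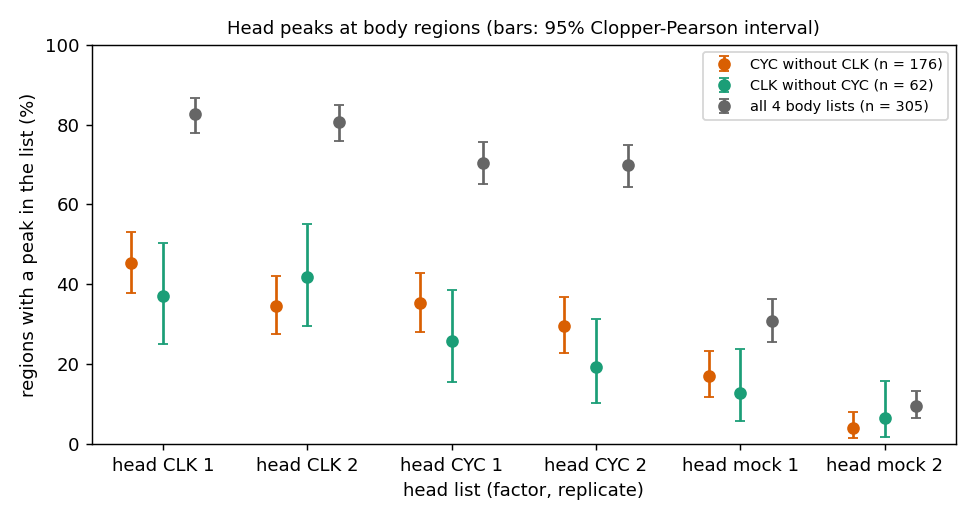
Share of body regions with a peak (vertical axis, %) in each head list (horizontal axis), for both one-partner groups and for regions in all 4 body lists; points are shares and bars are 95% Clopper-Pearson intervals. One-partner groups lie between 19.4% and 45.5% in the tagged lists, below the grey points at 69.8% to 82.6%.

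Few regions had peaks in both head lists of one factor and in neither head list of the other. In the CYC group 2 of the 176 CYC regions without CLK (1.14%) had both head CYC peaks and no head CLK peak, while 7 (3.98%) showed the opposite, both head CLK peaks and no head CYC peak. Over the 983 regions these patterns were found at 0.61% and 5.49%, so both shares were near that level. The 2 were chr2R:3669925-3670275, with first scores of 14.6 and 7.85 in body CYC and 4.60 and 3.32 in head CYC, and chr3R:133218-133729, with 4.72 and 3.28 in body CYC and 3.25 and 3.15 in head CYC. Both were named after their values were seen. A peak in at least 1 head CYC list and in no head CLK list was found at 17 of the 176 (9.66%, 5.73 to 15.0). Over the 983 regions that share was 5.49%, and the difference was not tested. The opposite pattern, a head CLK peak and no head CYC peak, was found at 21 of the 176 (11.9%, 7.54 to 17.7). It was found at 12.7% of the 983 regions. Most of the 983 regions had peaks of both factors in bodies, so their shares describe the head pattern only.

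Among the 62 CLK regions without CYC, 4 (6.45%) had both head CLK peaks and no head CYC peak, against the 5.49% above, and none had both head CYC peaks alone. Besides chr2L:12520982-12521311, described above, they were chr3L:11003400-11003919, chr3R:17413059-17413648 and chr3R:19993343-19993665, also named after their values were seen. The last had the higher scores of these 3, with 10.5 and 11.4 in body CLK and 20.8 and 8.35 in head CLK. None of the 4 had a mock peak. A peak in at least 1 head CLK list and in no head CYC list was found at 11 of the 62 (17.7%, 9.20 to 29.5). Over the 983 regions that share was 12.7%, and the difference was not tested. The opposite pattern, a head CYC peak and no head CLK peak, was found at 4 of the 62 (6.45%, 1.79 to 15.7). It was found at 5.49% of the 983 regions.

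Where one-partner sites did have a head peak, it mostly stood above its list's median by the first score, but not by the second. Of the 80 CYC regions with a peak in head CLK replicate 1, 72 stood above that list's median first score, and their own median was 12.8 against 4.55. In head CYC replicate 1, 56 of 62 stood above the list's median, with a median of 7.02 against 3.16. In the replicate 2 lists 51 of 61 and 43 of 52 did. Of the CLK regions, 21 of 23 stood above the median in head CLK replicate 1 and 18 of 26 in replicate 2. Regions in all 4 body lists did so more often, at 94.8% and 91.5% in the head CLK lists. In the head CYC lists 97.7% and 94.4% of them did. Standing above the median is thus not particular to one-partner sites. By the second score the CYC regions had medians of 4.80 and 3.37 in the head CLK lists, against 5.71 and 3.55 for the lists, and of 3.87 and 3.06 in the head CYC lists, against 4.79 and 3.40. The CLK regions had 5.97 and 3.31 in the head CLK lists and 3.23 and 3.11 in the head CYC lists. Their median was thus above that of the list in head CLK replicate 1 and below it in the other 3. The head peak lay near the body peak, with medians of 31.0 to 50.5 bp between head and body midpoints at the CYC regions and 30.0 to 112 bp at the CLK regions.

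Head shares were also compared within bins of body rank. In the best 2 of the 4 bins of body CYC rank, 6 of 6 and 27 of 31 CYC regions without CLK (87.1%) had a head peak, against 92.9% and 92.5% of the regions in all 4 body lists. In the lower bins 27 of 48 (56.3%) and 44 of 91 (48.4%) did, against 79.3% and 74.1% of the regions in all 4 lists, of which there were 58 and 27. CYC sites with 1 CLK list lay between, at 77.8% and 55.0%. For CLK the last bin showed 15 of 38 (39.5%) against 78.4%, the third 12 of 15 (80.0%) against 86.0% and the second 6 of 9 (66.7%) against 81.3%. With bins by the second score the difference did not follow rank. From the best bin to the last, 70.0%, 67.9%, 48.8% and 58.8% of the CYC regions without CLK had a head peak, against 88.3%, 87.5%, 95.3% and 78.8% of the regions in all 4 lists. For the CLK regions without CYC, the best bin by that score had 2 of 10 (20.0%) against 82.5%, and the others had 57.1% to 61.5% against 89.3% to 94.3%.

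**Figure D5:**
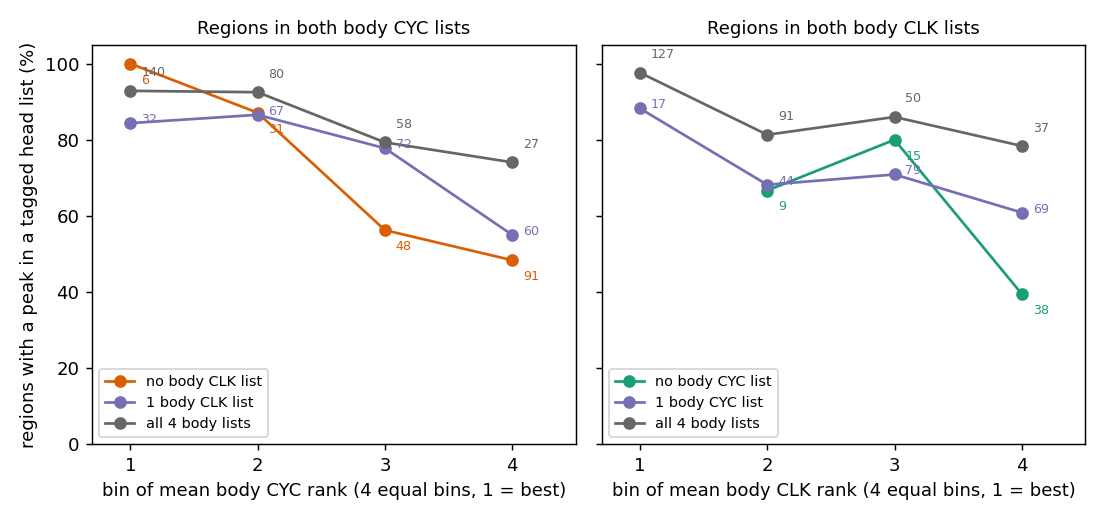
Share of regions with a peak in a tagged head list (vertical axis, %) by bin of mean body rank by the first score (1 is best), for regions in both body CYC lists (left) and both body CLK lists (right); numbers beside points count regions. For CYC the lines lie close in bin 2 and part in bin 3, where 56.3% of regions without CLK and 79.3% of regions in all 4 lists have a head peak.

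Mock pull-downs touched a minority of the members. Body mock replicate 1, a list of 73 peaks, had a peak at none of the 238 and at 2 of the 983 regions (0.20%). Body mock replicate 2 had a peak at 3 CYC regions, chr2L:1185700-1185994, chr2R:10460358-10460653 and chr3L:18092915-18093260. Over the 983 regions a body mock peak was found at 1.12%. A head mock list had a peak at 34 CYC regions (19.3%, 13.8 to 25.9) and 9 CLK regions (14.5%, 6.86 to 25.8), against 28.7% of the 983 regions and 111 of the 305 regions in all 4 body lists (36.4%). Of the 34 CYC regions with a head mock peak 30 had a tagged head peak (88.2%), and of the 142 without one 74 did (52.1%). Over the 983 regions these shares were 94.3% and 65.3%, and in the CLK group 7 of 9 and 26 of 53 did. With head peaks that overlapped a mock peak left out, 44.9% of the CYC regions, 41.9% of the CLK regions and 59.3% of the regions in all 4 body lists had a head peak.

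Body peaks of the other factor lay about as near to the CYC regions as to regions called in a single body CYC list, and somewhat nearer to the CLK regions, a difference that was not tested. A body CLK peak lay within 500 bp of 38 of the 176 CYC regions (21.6%) and within 5000 bp of 99 (56.3%), at a median distance of 3554 bp. For the 2411 regions in 1 body CYC list and no CLK list the same shares were 18.0% and 55.5%. A body CYC peak lay within 500 bp of 21 of the 62 CLK regions (33.9%) and within 5000 bp of 49 (79.0%), at a median of 1313 bp. For the 1135 regions in 1 body CLK list and no CYC list these were 26.8% and 68.8%. The CYC lists are longer than the CLK lists, so the distances of the 2 groups are not comparable.

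The members just inside the rule show how narrow the division can be. The CYC regions nearest to a CLK peak were chr3R:7284408-7284727, chr3R:14749527-14749983 and chr3L:12830562-12830859, at 15, 24 and 32 bp from its edge. The CLK regions nearest to a CYC peak were chr3L:20509386-20509701 at 16 bp, chr2L:12520982-12521311 at 25 bp and chr3L:12830891-12831199 at 32 bp. A pair of these lie side by side, with CYC alone at chr3L:12830562-12830859 (2.28 and 5.34) and CLK alone at chr3L:12830891-12831199 (17.7 and 7.44). The same holds for chr3R:14749527-14749983 (11.5 and 2.85 in CYC) and its neighbour chr3R:14748883-14749503 (2.47 and 3.38 in CLK), the latter named after its values were seen. These were the 2 places where members of both groups lay within 500 bp of each other.

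Just outside the rule stood stronger sites that lost membership through a single peak. The best CYC regions with 1 CLK list were chr3R:17661469-17661842, with 45.5 and 40.0 in body CYC and 52.9 in body CLK replicate 1, chr3R:15619410-15619742, with 36.8 and 28.2 against 11.9 in that CLK list, and chr3R:4485983-4486319, with 44.4 and 25.2 against 9.55 in body CLK replicate 2. The best CLK regions with 1 CYC list were chrXHet:191060-192098, which has peaks of both body mock lists, chr2L:6351578-6351902 and chr2L:12590754-12591062. The last had 48.6 and 26.4 in body CLK, 17.8 in body CYC replicate 1 and no head peak.

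One-partner sites were scattered over the main arms. The CYC regions without CLK were spread as 26 on 2L, 41 on 2R, 36 on 3L, 45 on 3R and 28 on X, and the CLK regions without CYC as 11, 10, 17, 19 and 5. The X held 15.9% of the CYC group (10.8 to 22.2), 8.06% of the CLK group (2.67 to 17.8) and 13.4% of the 983 regions, so the intervals of the groups overlap. On 2R the shares were 23.3% (17.3 to 30.2), 16.1% (8.02 to 27.7) and 18.6%. On 2L, 3L and 3R the CYC group had 14.8%, 20.5% and 25.6%, and the CLK group 17.7%, 27.4% and 30.6%. The 983 regions had 17.5%, 22.2% and 27.9% there. No member lay on chromosome 4 or on a heterochromatic scaffold. Such places were rare among the 983 regions too, with 2 on chromosome 4 and 2 on XHet (0.20% each).

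Few members had another member of their group within 5000 bp. No share over other body regions was taken for this or for the distances below. No pair of CLK regions without CYC lay within 5000 bp of each other, and 161 of the 176 CYC regions had no other member of their group that close. The other 15 formed 7 small groups, the largest of 3 at chr3L:9438411-9445910, followed by pairs at chr2R:4981367-4985303 and chr2R:7519135-7523014. Regions in all 4 body lists lay within 5000 bp of 24 CYC regions (13.6%) and 8 CLK regions (12.9%). Regions in all 8 tagged lists lay that close to 19 and 4. Nearest to them among the CYC regions were chr2L:2749340-2749828 at 94 bp, chr2L:8328831-8329176 at 118 bp and chr2L:3152641-3152981 at 150 bp. Among the CLK regions they were chr3L:20509386-20509701 at 526 bp, chr3L:7858961-7859430 at 651 bp and chr2R:12014689-12015101 at 4264 bp.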

How the data were processed

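The data are the peak lists of 12 V5 pull-downs. Reads were mapped with Bowtie 0.12.7 to dm3, per the submitters' processing notes. How peaks were called is not given in these sources. Per the labels, chromatin was sonicated for 6 rounds in heads and 4 in bodies, so sonication follows tissue. Each deposited list gives start, end, midpoint and 2 values per peak, treated as a score of unknown scale. Replicates were not pooled, and depth is unknown.

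Ends were counted as part of a peak, and peaks sharing 1 bp or more were joined. Where a list had several peaks in a region, the one with the highest first score was used. Regions are not replicates, so only the head comparison was tested, across libraries. Intervals are Clopper-Pearson at 95%. Named regions are the 10 best per group by mean first-score rank over the lists that hold them, 3 per group nearest the other factor, 3 just outside the rule, 3 nearest a region in all 8 lists, and the 3 largest clusters. Members and lists were chosen with earlier results of these data known. Genes and sequences were not used here, since the reference at hand is of another build. Joining and classes were tested on simulated lists. Python 3.11.15, numpy 2.4.6, pandas 2.3.3 and scipy 1.17.1 were used.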

Additional observations from a re-analysis of the deposited data

How the results depend on the processing

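The counts of one-partner regions depended on which lists decided membership. The CYC count also moved when the body lists had equal length. The CYC count of 176 was 62 among peaks at or above the median second score of 4.36, 103 and 70 with body lists at equal length by the first and second scores, and 2344 and 864 from replicate 1 and replicate 2 lists alone. Leaving out one body list gave 216 to 2168 CYC regions and 83 to 849 CLK regions. The CLK count of 62 was 13 above the median second score, 41 without regions that have a CYC peak within 500 bp, and 928 and 739 from replicate 1 and replicate 2 lists alone. In those cases membership needs fewer lists or uses fewer peaks by construction. The share of CYC regions with a head peak was 77.4% above the median second score, 72.8% and 71.4% at equal length, 39.7% from replicate 1 lists alone and 44.9% without head peaks at mock peaks, an alternative added after seeing the data. It ran from 38.0% to 66.9% with one list left out. The CLK share was 30.8% above the median second score, 35.7% from replicate 1 lists alone and 34.6% to 65.1% with one list left out. The difference between head libraries ran from -1.31 to 17.1 points with one list left out and was -7.44 above the median second score; the cause was not tested. With the replicate number as a block it kept its value of 9.27 points, and the exact permutation p was 0.5, the smallest that 4 arrangements allow. The numbers are not known to pair the samples. All other alternatives left the counts close to those reported, from 126 to 176 for CYC and from 54 to 76 for CLK, left the shares within their intervals and kept the sign of the difference. Of the 20 best-ranked regions, 7 of 10 in the CYC group and 2 of 10 in the CLK group were still members above the median second score.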
